A study of Macaca mulatta with 6 samples.

Results

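Reported here are 500 windows of 2000 bp on macaque chromosomes 1 to 20 in which the summed signals of 2 digests lay closest to equal in haploid embryonic stem cells (haESC) and in sperm at once. They were chosen by measured values from 24080 windows that held at least 5 CCGG sites with signal in both cell types, so members make up 2.08% of eligible windows. The contrast of a window was (sum of first values - sum of second values) / (sum of both), where first and second are the first 2 value columns of each deposited table, and windows were ranked by the larger absolute contrast of the 2 cell types. The contrast runs from -1 to 1 and is 0 when both digests gave the same signal. Because the first-pair contrast set the choice, its values in members are a description and support nothing.

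The DNA came from the rhesus macaque, Macaca mulatta. One group is haESC, called parthenogenetic in the title (their genome stems from an unfertilized egg), and the other is sperm. No treatment, age, strain or number of animals is given for either group in the sources used here, nor whether the haESC are 1 line or clone. Each cell type had 3 libraries of genomic DNA, labelled HpaII, BGT_MspI and MspI, with 1 library per digest, so nothing was replicated and no value has a replicate error or a p-value from replicates. By its title the series is about imprinted regions that differ in methylation.

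CCGG is the recognition sequence of the restriction enzymes HpaII and MspI. Methylation of its inner cytosine blocks HpaII and not MspI, and glucosylation of 5-hydroxymethylcytosine by a β-glucosyltransferase (BGT) blocks MspI at hydroxymethylated sites. HMST-Seq sequences short tags beside the cut sites of such digests, so the balance of 2 digests at a site depends on how modified the site is. CCGG sites are crowded in CpG islands, GC-rich stretches that often cover promoters and are often unmethylated. Imprinted control regions carry methylation on the maternal or the paternal copy and are set differently in eggs and sperm.

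The deposited tables have no column names, so which digest a value comes from is not known, and a value is called here the first, the second or the third. Nothing states that the order of digests is the same in both tables. Across 1215827 shared autosomal sites the first value of haESC ranked most like the first value of sperm (Spearman rho 0.56, against 0.25 and 0.26 with the others). The second and the third values ranked alike between tables (rho 0.76 to 0.77) and within them (0.88 in haESC, 0.93 in sperm), so these 2 cannot be assigned by likeness. These correlations are across sites of single libraries, and sites are not replicates. An equal signal means equal on the authors' scale, whose normalization the sources used here do not state, and the read depth is unknown. Positions are those of the tables, and without a genome of the same build no base sequence of a window is printed and no gene is named.

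Equal sums were reached by windows whose single sites were far from equal. The closest window, chr17:5150001-5152000, had summed first and second values of 83.0 and 83.7 in haESC and 89.7 and 90.4 in sperm, a contrast of -0.00429 and -0.00358. Of its 5 sites, the one at 5150710 had a first value of 1.55 and a second of 9.64 in haESC, a single-site contrast of -0.723. In sperm the same site had 12.2 and 4.95, a contrast of 0.424, so it leaned the opposite way. The last site, at 5151767, had 37.5 and 20.7 in haESC, a contrast of 0.288, and 28.0 and 27.9 in sperm, a contrast of 0.00168. At 5151505 the second value was higher in both cell types, with 3.24 and 14.1 in haESC and 11.9 and 24.3 in sperm. The window thus held sites that leaned each way, and in these libraries their differences cancelled to 98.6% in haESC and 98.5% in sperm.

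In chr10:2080001-2082000, ranked 9, all 6 sites leaned the same way in both cell types and all 6 were called in both. A call is a value below 0.05 in a deposited column that has no name. The column was read as a score for the 2 values compared, and its test is not described. It is not taken as a p-value for a difference, because nearly equal values can score low. At position 45369755 of chromosome 19, haESC values of 115 and 113 scored 0.0993. At position 148885576 of chromosome 8, with less signal, haESC values of 12.8 and 12.7 scored 0.254. A call does not by itself mean a large difference. At position 9150450 of chromosome 8, haESC values of 123 and 105 (contrast 0.0788) were called. In the chromosome 10 window, the 3 sites at 2080226, 2080380 and 2080436 had the higher second value. Their contrasts were -0.538, -0.594 and -0.616 in haESC and -0.337, -0.866 and -0.277 in sperm. The 3 sites at 2080776, 2081168 and 2081766 had the higher first value, with contrasts of 0.613, 0.376 and 0.495 in haESC and 0.466, 0.372 and 0.476 in sperm. The window is therefore divided into a left part and a right part of opposite lean, and its sums were 183 and 180 in haESC (contrast 0.00716) and 180 and 184 in sperm (-0.0114). A similar case, chr20:86450001-86452000, ranked 2, held a site at 86451835 with 1.58 and 24.9 in haESC and 6.08 and 32.6 in sperm, and a site at 86451051 with 44.4 and 10.4 in haESC and 54.6 and 6.66 in sperm. Its sums were nonetheless 144 and 145 in haESC and 182 and 184 in sperm.

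In chr11:116178001-116180000, ranked 8, 1 of 5 sites leaned the same way in both cell types. The site at 116178230 had 11.0 and 31.4 in haESC and 24.6 and 16.0 in sperm. The site at 116178596 had 22.4 and 8.91 in haESC and 16.8 and 25.5 in sperm. This window was thus balanced in both cell types by different sites. The other windows among the 10 closest were chr10:1758001-1760000, chr15:98884001-98886000, chr13:73546001-73548000, chr18:15562001-15564000, chr3:194402001-194404000 and chr18:71386001-71388000, with larger contrasts of 0.00566, 0.00573, 0.00944, 0.0102, 0.0103 and 0.0115 in that order. They held 5 to 7 shared sites each.

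**Figure D1:**
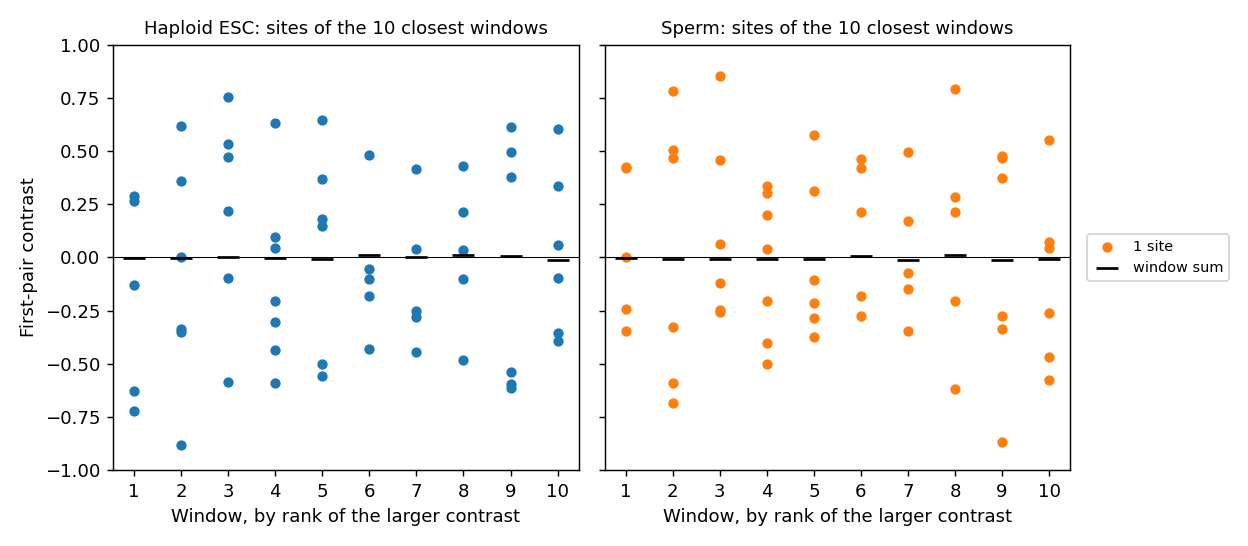
First-pair contrast of every shared site (points) in the 10 windows closest to equality, in haESC (left) and sperm (right), with the contrast of the window sum as a black bar. The bars lie within 0.0115 of 0, while single sites reach -0.881 in haESC and -0.866 in sperm.

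The same held over all members. Of 2758 shared sites in members, 1707 (61.9%, 95% Wilson interval 60.1% to 63.7%) were called for the first pair in haESC and 1687 (61.2%, 59.3% to 63.0%) in sperm in the authors' deposited tables. Over the 136590 sites of all eligible windows these shares were 73.9% in haESC and 74.6% in sperm. Sites called in both cell types numbered 1159 in members (42.0%), against 59% of sites in all eligible windows. So calls were fewer than in the background, but at this threshold most sites of windows with equal sums were called. Members had less signal, and a score can be low at nearly equal values, so the shares are not a measure of difference alone. The part of signal was not tested. At a score below 0.01 the member shares were 44.1% in haESC and 45.6% in sperm and no longer a majority. Over all eligible windows they were 62.4% and 63.9%. The intervals hold counting error alone, and sites of 1 window share their surroundings.

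The median absolute contrast of single sites in members was 0.275 in haESC (95% interval of the median by ranks 0.263 to 0.285) and 0.304 in sperm (0.286 to 0.318), about as large as that of window sums in the other eligible windows (0.272 and 0.308). Single sites of the other windows had medians of 0.398 and 0.421. Contrasts beyond 0.5 in either direction were found at 568 member sites (20.6%) in haESC and 616 (22.3%) in sperm, fewer than the 36.8% and 41.0% of sites in the other eligible windows. No member, and none of all eligible windows (0%), had every site within 0.2 of equality in both tables, and 0 of 500 allows a Wilson upper limit of 0.762%.

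Only 1 member had no called site in either table, the window chr14:93282001-93284000, singled out after its values were seen. It was also the only such window among all eligible ones (0.00415%). Its 5 sites had first and second values of 11.5 and 9.61, 12.7 and 19.1, 39.0 and 34.4, 15.6 and 15.1, and 32.7 and 25.6 in haESC. In sperm they had 6.20 and 8.27, 12.0 and 12.8, 21.8 and 23.5, 9.23 and 8.28, and 6.15 and 4.48. The largest single-site contrast was -0.201 in haESC and 0.157 in sperm, so this window came nearest to equality site by site as judged by calls. Its first plus second value per site was 43.1 in haESC and 22.6 in sperm, against member medians of 40.3 and 36.6. Whether low signal in sperm left its sites uncalled was not tested. At the other end, 10 members (2%) had every site called in both tables, against 14.4% of all eligible windows.

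Called sites of members were split evenly by direction, which the choice of windows makes likely. The first value was the higher at 836 of 1707 called sites (49.0%) in haESC and at 839 of 1687 (49.7%) in sperm, against 65.9% and 58.3% in the other eligible windows. In every member both directions occurred in each table. Over the other eligible windows, all sites leaned one way in 25.5% of windows in haESC and 26.8% in sperm. Summed over a member's sites, the median share of the differences that cancelled was 88.4% in haESC and 89.1% in sperm, against 22.5% and 20.1%. Strong opposites, a site above 0.5 and another below -0.5 in both tables, occurred in 34 members (6.8%, 4.91% to 9.35%), against 4.4% of all eligible windows.

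Over all sites, the lean of a site was shared between the cell types about as often in members as elsewhere. Among sites called in both cell types it was shared more often in members. Its direction was the same in both at 1984 of 2758 member sites (71.9%, 70.2% to 73.6%) and at 73.3% of sites in the other eligible windows. Of these 1159 member sites, 1043 (90.0%, 88.1% to 91.6%) leaned the same way, 498 with the higher first value and 545 with the higher second value. In the other eligible windows this was 84.1% (83.9% to 84.4%), made up of 55.1% with the higher first and 29.0% with the higher second value. The rank correlation of single-site contrasts between cell types was 0.59 in members and 0.60 in the others, across 2758 and 133832 sites that share their libraries and positions. Each direction thus recurred in both cell types at member sites, as it did in the other eligible windows. A mixture of directions inside members is made likely by the choice of balanced sums.

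**Figure D2:**
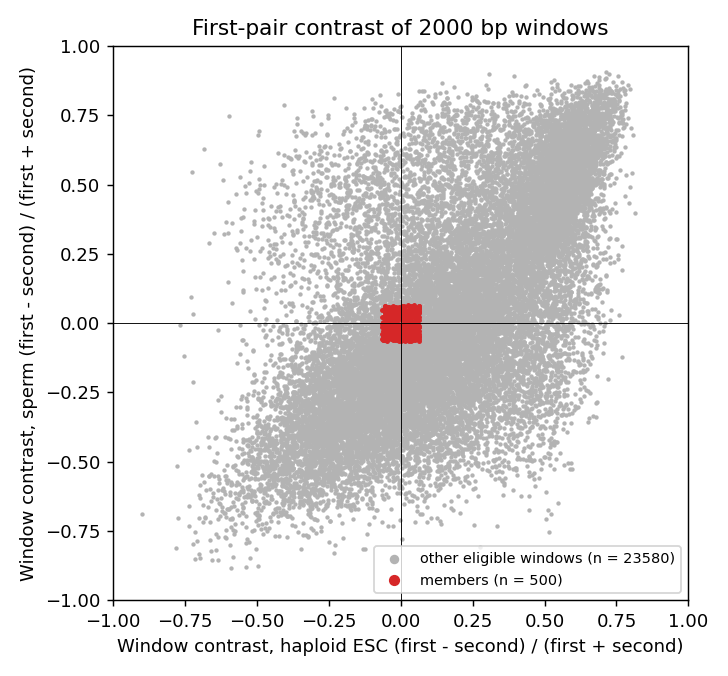
First-pair contrast of each eligible 2000 bp window in haESC (horizontal) and sperm (vertical), with the 500 members in red and the other 23580 windows in grey. The members fill a square within 0.0648 of 0 on both axes by the rule that chose them, inside a cloud that is dense on both sides.

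The limit of the set was a contrast of 0.0648. The last members were chr7:168746001-168748000 (larger contrast 0.0646), chr3:39942001-39944000 (0.0647) and chr14:8680001-8682000 (0.0648). The first windows outside were chr7:10774001-10776000 (0.0649), chr20:87084001-87086000 (0.0649) and chr1:15370001-15372000 (0.0650), so no gap separates members from the next windows. Taken by itself, haESC had 3175 windows within the limit (13.2% of eligible windows) and sperm 2681 (11.1%). The 500 members are 15.7% of the first list and 18.6% of the second. Within the limit, 109 members (21.8%) had the higher first value in both tables and 133 (26.6%) the higher second value in both. The first value was the higher in haESC alone in 152 members (30.4%) and in sperm alone in 106 (21.2%). In the other eligible windows these shares were 45.2%, 26.4%, 22.1% and 6.26%, in the same order. The rule used these contrasts, so the shares are a description.

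Members had less signal than other eligible windows. The sum of first and second value per site had a median of 40.3 in haESC (from 9.45 to 158 over members) and 36.6 in sperm (15.4 to 176), against 54.3 and 53.0 in the other eligible windows. For the first value alone, the upper quartile per site was 25.0 in members and 59.4 in the others in haESC, and 22.9 and 79.6 in sperm. For the second value it was 24.9 and 29.5 in haESC and 22.9 and 38.2 in sperm. Windows with a high first value were thus few among members. A rule that keeps the first sum close to the second makes this likely, and with it a lower total, so these values are a description. The third value was not used by the rule but ranks like the second. Its median per site was 21.5 in members and 25.0 in the others in haESC, and 19.5 and 26.8 in sperm. The part of signal in the counts of called sites was not tested for the first pair.

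The highest summed signal of both tables was 1669 in chr19:45368001-45370000. Its 5 sites averaged 158 in haESC and 176 in sperm, and 2 of them were called in haESC and 5 in sperm. The next were chr8:9150001-9152000 (1553), chr9:414001-416000 (1422), chr16:4834001-4836000 (1321) and chr16:7988001-7990000 (1301). In chr9:414001-416000 the cell types differed most among these 5, with 66.5 per site in haESC and 137 in sperm. The lowest sum was 150.5 in chr18:68910001-68912000, with 9.45 per site in haESC and 20.6 in sperm. The other low windows were chr3:272001-274000 (178), chr15:3258001-3260000 (186), chr10:34112001-34114000 (193) and chr15:26360001-26362000 (210.0). No single level of signal was therefore common to the members. The log2 ratio of haESC to sperm signal per site had a median of 0.15 in members, with quartiles of -0.09 and 0.37, and of -0.02 in the others, with quartiles of -0.37 and 0.34.

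Members held somewhat fewer sites than other eligible windows. With 5 shared sites there were 318 members (63.6%, 59.3% to 67.7%), against 57.8% of the other eligible windows. With 8 sites there were 6 members (1.2%), against 4.13%, and with 9 or more there were 6 (1.2%), against 2.01%. The member with the most sites, chr1:6426001-6428000, held 10, with sums of 157 and 161 in haESC (contrast -0.0108) and 153 and 163 in sperm (-0.0340). Of these 10 sites, 5 were called in haESC and 4 in sperm. Windows with 9 sites included chr14:882001-884000, chr3:196306001-196308000, chr13:18614001-18616000 and chr3:40334001-40336000. In chr3:196306001-196308000 all 9 sites were called in haESC and 5 in sperm, while in chr3:40334001-40336000 2 and 4 were called. The median distance from a site to its nearest shared site was 194 bp in members (186 to 201) and 166 bp in the others (165 to 167), so member sites lay farther apart.

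The lean of a member's site went with its spacing. Sites whose nearest shared neighbour lay over 100 and up to 200 bp away had a median contrast of -0.0604 in haESC (-0.107 to -0.0270) and -0.0874 in sperm (-0.136 to -0.0479), across 674 sites. Sites with the nearest neighbour over 200 and up to 400 bp away had 0.0564 (0.0260 to 0.0956) and 0.0857 (0.0559 to 0.111), across 980 sites. Over 400 and up to 800 bp the medians were 0.0964 and 0.156, across 330 sites. In both cell types, member sites over 50 and up to 200 bp apart therefore leaned to the second value. Those over 200 and up to 800 bp apart leaned to the first, and the intervals of the closest and the most distant class included 0. The rule holds member sums near equal, so this change of sign follows in part from the choice. In the other eligible windows all medians were above 0. A step at the same distance was present in the other eligible windows, where the medians went from 0.129 to 0.228 in haESC and from 0.00785 to 0.156 in sperm between these classes of up to 200 and up to 400 bp. Between these classes the median second value in members went from 20.6 to 16.8 in haESC and from 18.5 to 14.8 in sperm. The third value went from 21.6 to 17.7 and from 19.6 to 15.6, while the first value was 18.2 and 17.9 in haESC and 15.0 and 17.5 in sperm. In haESC the step thus lay in the second value, and in sperm both values differed, in opposite directions.

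**Figure D3:**
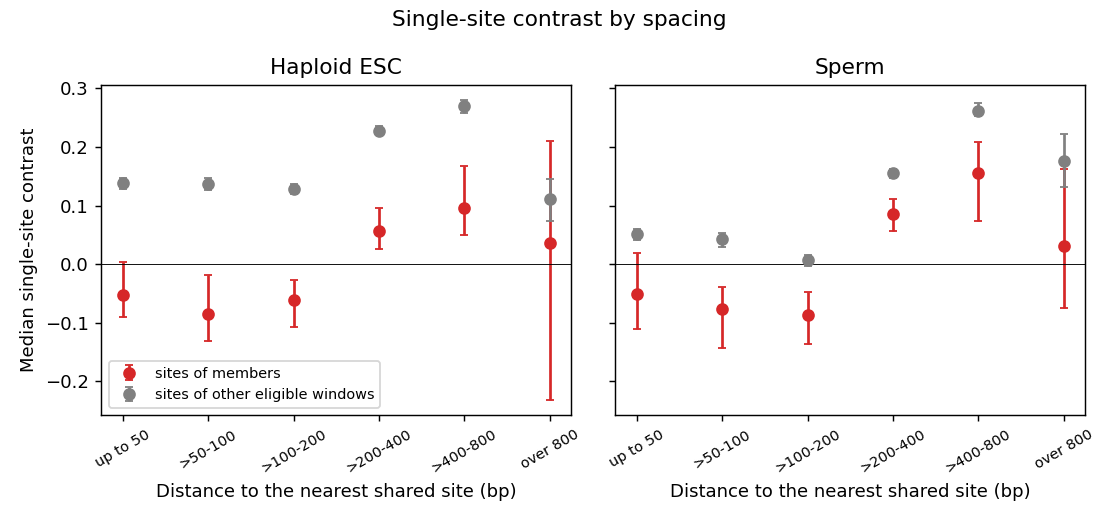
Median first-pair contrast of single sites (vertical) by distance to the nearest shared site in bp (horizontal) in haESC (left) and sperm (right), for sites of members (red) and of other eligible windows (grey), with 95% intervals of the median. Member medians lie below 0 up to 200 bp and above 0 beyond it, a change of sign that follows in part from the choice of balanced sums. The class over 800 bp holds 20 member sites.

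The third value allowed a look outside the pair that chose the windows, although the first value is common to both contrasts. With the third value in place of the second, the contrast of members had a median size of 0.0577 in haESC and 0.0653 in sperm, against 0.262 and 0.313 in the other eligible windows. In 135 members (27%, 23.3% to 31.1%) it stayed within the limit of 0.0648 in both tables, against 2.03% of all eligible windows. In the remaining members the limit was passed in at least 1 table when the second column was exchanged for the third. The second and the third values rank alike at single sites, so these counts follow in part from the choice and are a description.

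The contrast of the second and the third value, the second pair, was not used to choose the windows but shares its second value with the rule. Its size in members had a median of 0.0550 in haESC and 0.0606 in sperm, against 0.0599 and 0.0550 in the other eligible windows. It was larger than the limit of 0.0648 in 211 members (42.2%, 37.9% to 46.6%) in haESC and in 229 (45.8%, 41.5% to 50.2%) in sperm, against 46.6% and 42.9% of the others. In these members the first and second values were closer to each other than the second and the third values were, which follows from the limit itself. The median signed contrast of the second pair was -0.0240 in haESC and -0.0388 in sperm, so the third value was on balance a little higher than the second, as in the others (-0.0372 and -0.0272).

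Second-pair calls were fewer in members. For this pair the deposited value exceeds 1 at some sites, and here too a call is a score below 0.05 and not a significance call. They were made at 279 of 2758 member sites (10.1%, 9.05% to 11.3%) in haESC and at 202 (7.32%, 6.41% to 8.36%) in sperm, where the sites of all eligible windows had 14% and 11.3%. There was no second-pair call in either table in 215 members (43%), against 27.0% of the other eligible windows. For this pair 43 member sites (1.56%) were called in both tables, against 2.62% of sites in the other eligible windows. Signal moved with these counts: of member sites, 17.7% in haESC and 13.3% in sperm lay in the highest of 4 equal classes by the second plus the third value. Within that class members had 19.5% (16.2% to 23.2%) calls in haESC against 25.4% at the other sites, and 27.0% (22.7% to 31.7%) against 30.6% in sperm. In the lowest class the shares were 4.86% (3.54% to 6.62%) and 5.47% in haESC and 1.69% (1.01% to 2.82%) and 1.85% in sperm. In the third class of haESC, counted from the lowest, they were 10.7% (8.61% to 13.1%) and 15.0%. The share in members was the lower one in every class of both tables, but its interval included the share at the other sites in all 4 classes of sperm and in the 2 lower classes of haESC.

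Equality did not in general extend to the windows beside a member. Of the windows directly before and after members, 505 held at least 3 shared sites. Their median absolute first-pair contrast was 0.244 in haESC (0.221 to 0.265) and 0.271 in sperm (0.246 to 0.292). Beside the other eligible windows it was 0.255 and 0.274. Both tables were within the limit in 5 of the 505 (0.990%, 0.424% to 2.30%), against 2.15% of 23202 windows beside the others. From 2 to 20 kb away the medians around members lay near those around other windows.

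Under the rule, the direction of those neighbours did differ. The signed contrast directly beside members had a median of 0.0488 in haESC (0.0234 to 0.0986), against 0.155 (0.150 to 0.161) beside the others. With windows shifted by 1000 bp it was 0.0852, against 0.161, and with windows of 5000 bp 0.106, against 0.137, so the gap in haESC was narrower under both. In sperm it was -0.101 (-0.146 to -0.0605), against 0.0226 (0.0163 to 0.0302), so it leaned to the second value. With windows of 5000 bp the sperm value was 0.0450, close to the 0.0481 beside the others, so the sign depends on the window length. With windows shifted by 1000 bp it was -0.0286 (-0.0579 to 0.0223), against 0.0243, so the lean in sperm also depends on where windows begin. At the next windows out, 4 kb away, the sperm medians around members were 0.0198 before and 0.00248 after, and the lean was no longer seen. No test was made, since the windows come from single libraries.

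**Figure D4:**
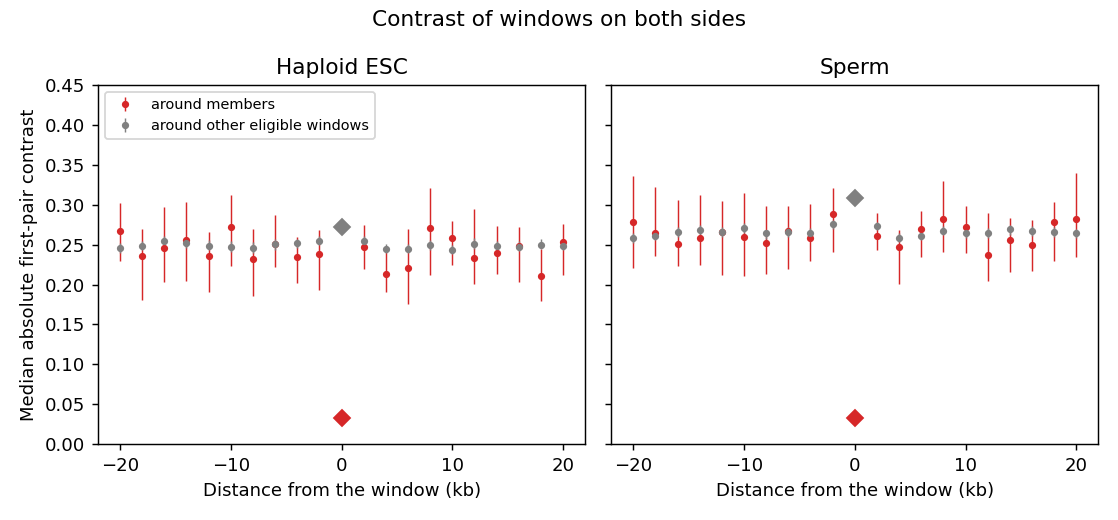
Median absolute first-pair contrast (vertical) of windows at distances of up to 20 kb on both sides (horizontal, in kb) of members (red) and of other eligible windows (grey), in haESC (left) and sperm (right), with 95% intervals of the median as bars and the windows themselves as diamonds. The red diamonds, set low by the rule, stand at 0.0332 and 0.0330, and the neighbouring windows directly beside them at 0.238 to 0.289.

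Few members touched another. The 2 that did were chr8:148882001-148884000 with a contrast of -0.0639 in haESC and -0.0144 in sperm, and chr8:148884001-148886000 with -0.0366 and -0.0109, and this was the only block of neighbouring members. Both leaned slightly to the second value in both tables. The number that touched another depended on the setting: it was 10 with windows shifted by 1000 bp, 6 with windows of 5000 bp, 6 without sites of low signal and 16 with the 1000 closest windows as members.

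Every autosome held members. Their share of eligible windows was highest on chromosome 15, with 39 of 1409 (2.77%, 2.03% to 3.76%), and lowest on chromosome 17, with 5 of 421 (1.19%, 0.508% to 2.75%). Chromosome 3 had 48 of 1874 (2.56%) and chromosome 10 had 48 of 2087 (2.30%), the largest numbers. On all 20 chromosomes the Wilson interval included the overall 2.08%, so under the rule no chromosome stood apart beyond counting error. The share on chromosome 15 was 1.33 times the overall share (0.978 to 1.81). It was 0.993 times with windows shifted by 1000 bp, 1.40 times with windows of 1000 bp (1.06 to 1.81) and 1.38 times without sites of low signal (1.03 to 1.84), so the interval excludes equality under the last 2 settings. Chromosome 15 was singled out as the highest of 20. Near chromosome ends, within 5 Mb of the first or last shared site, lay 199 members (39.8%, 35.6% to 44.2%) and 36.6% of the other eligible windows.

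**Figure D5:**
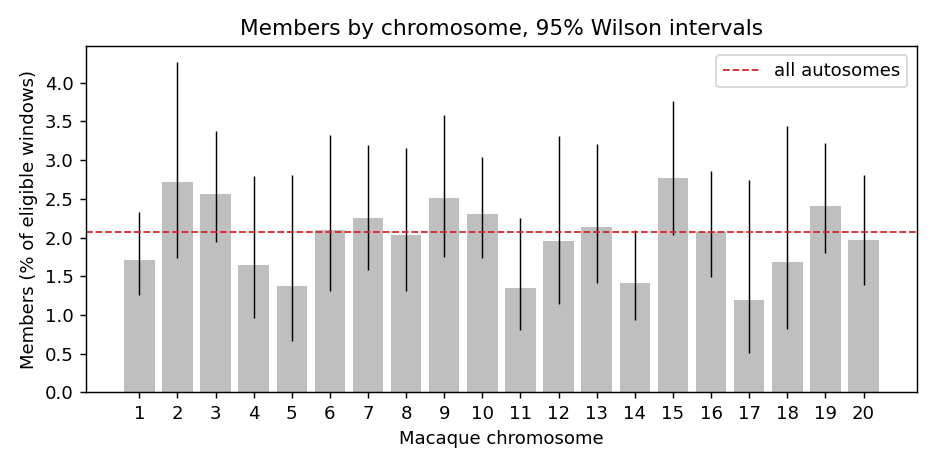
Members as a percentage of the eligible windows of each macaque autosome (bars from 0), with 95% Wilson intervals as lines and the overall 2.08% as a dashed line. Chromosomes 15 (2.77%) and 17 (1.19%) are the highest and lowest, and every interval includes the dashed line.

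Sites listed in 1 table alone did not set members apart. Of 2877 sites listed in either table inside members, 88 (3.06%, 2.49% to 3.75%) were in the haESC table alone and 31 (1.08%, 0.760% to 1.53%) in the sperm table alone. In the other eligible windows these were 2.78% and 1.37%. The sum over both was 4.14% in members and 4.14% in the others.

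Which windows are members depends on where windows begin. With windows shifted by 1000 bp, 36 of the 500 windows then chosen overlapped a member, although each shifted window covers parts of 2 of the windows used here. With single-site contrasts averaged in place of sums, 102 of the 500 members were chosen again. With sites of low signal left out, 10772 windows stayed eligible in place of 24080, and 119 of the 500 windows chosen were members. The windows chosen that overlapped a member numbered 78 with 3 or more sites, 38 with windows of 1000 bp and 23 with windows of 5000 bp. They were chosen from 129745, 3951 and 75437 eligible windows, in that order. Members are 2.08% of the eligible windows of the rule, and no expected overlap was computed. After the shift, the share of called sites and the median size of single-site contrasts were 61.6% and 0.277 in haESC and 60.4% and 0.297 in sperm. These summary values were close under the shift, while most of the individual windows were other ones.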

How the data were processed

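CCGG sites were profiled by HMST-Seq in haESC and sperm, 3 digests each with 1 library per digest. The authors deposited 1 table per cell type without column names. Its 3 distinct value columns are signal values normalized by the authors in a way that is not given; another column repeats the second at every one of the 1366982 haESC and 1297392 sperm rows, so 2 value columns, 1 per table, were left out. The labels tie each table to the libraries of its cell type, and no column to a digest. The adjusted p-value of the first pair (first and second value) was read from the authors' deposited column, and that of the second pair (the second and the third value) is a deposited score, because it exceeds 1 at some sites. The sources used here do not state the aligner, the counting or the depth. The submitters' processing notes name the build hg19, which macaque chromosome names do not match, so the build of the positions is unknown.

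Tables were joined on chromosome and position, and windows started at position 1. Windows named are the 10 closest, the 5 with the most sites, the 5 with the highest and the 5 with the lowest signal, adjacent members, 3 on each side of the limit, and the chromosomes with the highest and lowest share. The members and lists were chosen with earlier results of these data known. Intervals are 95% Wilson intervals or rank intervals of medians and cover counting error only. No test between cell types was possible. The code of the window search was run on simulated data with 200 planted windows of equal sums, of which it recovered 100%. All other simulated windows were set far from equal, so this recovery was fixed in advance. It checks the code and says nothing about how members stand out in the real data. Python 3.11.15, pandas 2.3.3 and scipy 1.17.1 were used. Alternatives changed the window length, its start, the minimum of sites, the number of members, the signal minimum, the contrast and the call threshold.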

Additional observations from a re-analysis of the deposited data

Results flagged for a closer look

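Chromosome X was outside the choice of windows, and a signal was looked for there. Of 331 windows on X with at least 5 shared sites, 5 (1.51%, 95% Wilson interval 0.647% to 3.49%) lay within the limit of the autosomal members in both tables, against 2.08% of the autosomal windows.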

How the results depend on the processing

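Over the alternatives, 83 values stayed close to the reported one, 85 moved and 1 reversed. Close means inside the reported value's 95% interval, for the number of touching members within 1.5 times it, and for the limit, which has no interval, equal to 3 decimals. Without replicates no value has a test, and depth is unknown, so what depth limits cannot be stated. The cause of each move was not tested. A minimum of 10 sites per window was not run, because it leaves 149 windows, fewer than the members to choose. The contrast of the first and the third value, the share with the same direction, the share called in both tables and the signed contrast beside members were added after seeing the data.

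The limit of the larger contrast was 0.0262 with 3 or more sites per window, 0.0636 with windows shifted by 1000 bp, 0.233 with windows of 1000 bp and 0.0299 with windows of 5000 bp. It was 0.0447 for 250 members, 0.0925 for 1000 members, 0.125 without sites of low signal (first plus second value up to the lower quartile) and 0.0508 with the mean of single-site contrasts. The median number of sites per member was 3 with 3 or more sites and 6 with 5000 bp.

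In haESC the median signal per site was 38.3 with 3 or more sites, 41.7 with the shift, 45.1 with 1000 bp, 54.1 without low sites and 44.2 with the mean contrast. In sperm it was 32.0 with 3 or more sites, 42.1 with 1000 bp, 33.4 with 5000 bp, 50.8 without low sites and 39.8 with the mean contrast.

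The share of sites called for the first pair was 56.3% in haESC and 54.9% in sperm with 3 or more sites, 65.5% and 68.1% with 1000 bp, 59.5% and 58.0% with 5000 bp, and 67.5% and 70.8% without low sites. It was 64.2% in sperm with the mean contrast. At a score below 0.01 it was 44.1% and 45.6%, against 62.4% and 63.9% over all eligible windows. Below 0.001 it was 30.9% and 33.3%, against 52.6% and 55.1%. The share called in both tables was 35.5% with 3 or more sites, 48.6% with 1000 bp, 38.4% with 5000 bp, 52.1% without low sites and 45.1% with the mean contrast.

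For the second pair, the share called in haESC was 13.8% with 1000 bp, 14.4% without low sites and 11.6% with the mean contrast. In sperm it was 5.27% with 3 or more sites, 11.3% with 1000 bp, 5.62% with 5000 bp and 11.2% without low sites. At score thresholds of 0.01 and 0.001 it was 3.30% and 1.16% in haESC, against 5.77% and 2.33% over all eligible windows. In sperm it was 2.97% and 1.41%, against 5.55% and 2.81%.

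The median single-site contrast in haESC was 0.239 with 3 or more sites, 0.291 with 1000 bp, 0.288 for 250 members and 0.261 without low sites. In sperm it was 0.262 with 3 or more sites, 0.285 with 5000 bp and 0.326 with the mean contrast. The direction was the same in both tables at 69.0% of sites with 5000 bp, 75.7% without low sites and 74.6% with the mean contrast.

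Beside members, the median absolute contrast in haESC was 0.180 with 5000 bp and 0.186 with the mean contrast. In sperm it was 0.226 with the shift, 0.229 with 5000 bp and 0.190 with the mean contrast. The signed value in haESC was 0.0200 with 1000 bp and 0.106 with 5000 bp. In sperm it was -0.0495 (-0.107 to 0.00463) with 3 or more sites and -0.0286 (-0.0579 to 0.0223) with the shift. It was -0.0373 (-0.0637 to 0.00205) with the mean contrast, and it reversed to 0.0450 with 5000 bp.

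The members that touched another numbered 10 with the shift, 6 with 5000 bp, 0 for 250 members, 16 for 1000 members, 6 without low sites and 4 with the mean contrast. The ratio on chromosome 15 was 0.947 with 3 or more sites. Sites listed in 1 table alone were 5.84% with 3 or more sites, 2.01% with 1000 bp and 6.81% with 5000 bp. Members within the limit of each setting for the first against the third value were 6% with 3 or more sites, 73.6% with 1000 bp, 12% with 5000 bp, 13.2% for 250 members, 43.4% for 1000 members and 55.8% without low sites.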
